A study of Mus musculus with 8 samples.

Results

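The mitochondrial solute carriers are the genes whose symbol begins with Slc25a, and 45 of the 16308 genes in the deposited expression table met that rule. They encode the transporters that move metabolites, nucleotides, cofactors and ions across the inner mitochondrial membrane, mostly by exchanging a substrate in the matrix for another in the cytosol. The carriers share a fold of repeated membrane helices, and small numbers of paralogs often divide the same substrate between tissues or between calcium-dependent and calcium-independent forms. A resting T cell needs them mainly to export ATP and feed respiration. A dividing T cell also draws citrate and aspartate out of the mitochondria for growth.

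Expression was read in Th17 cells, the helper T cells that produce interleukin 17, and in the naive CD4 T cells from which they are grown, with 2 libraries in each group. All cells came from the C57BL/6 strain, and the headers mark all 4 libraries WT with a Malat1 prefix whose meaning no label gives. The Th17 cells had been polarized for 72 h with IL-6 (20 ng/mL) and TGF-β (0.1 ng/mL), over stimulation by anti-CD28 (1 µg/mL) and anti-CD3ε (0.25 µg/mL) in plates precoated with hamster IgG, and the naive cells were untreated. The culture protocol gives TGF-β as 0.1 to 5.0 ng/mL and the treatment protocol also names 48 h. Activation, cytokines and time in culture all separate the groups, so their parts in any difference cannot be told apart. The series also holds Th17 cells deficient in the RNA helicase DDX5 (titled DDX5∆T, with no Cre driver named) and wild-type Th17 cells, both cultured for 72 h with the same agents, 2 libraries each, for which tables of RNA editing sites alone were used.

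Libraries held between 11768994 and 26624436 reads on genes. The cells matched their labels: the 6 Th17 markers, among them Il17a, summed to 4090 and 3658 CPM (read counts scaled for library depth) in the Th17 libraries, against 7.22 and 5.00 in the naive libraries. The 6 markers of naive CD4 T cells summed to 1554 and 1409 CPM in Th17 and 5110 and 5439 CPM in naive libraries. Some of them mark CD4 T cells of any state, so this sum does not measure naive cells alone. Markers of other cells were low. B cell markers summed to 0.520 and 1.29 CPM in Th17 and 2.12 and 2.96 in naive libraries, myeloid markers to 3.68 and 3.71 against 5.31 and 4.30, CD8 T and NK cell markers to 18.0 and 17.6 against 30.1 and 40.7, and erythroid markers to 4.51 and 12.9 against 13.2 and 8.66, and their part in any result was not tested. The myeloid sums are alike although their genes went both ways: of 4 tested, 1 was higher and 2 lower in Th17 (edgeR adjusted p under 0.05). Th17 library 2 was the shallowest and yet had reads on the most genes, 15316 against 12499 to 14435 in the other libraries. In bulk RNA, fewer cells of a type and less RNA per cell cannot be told apart.

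Th17 cells differed from naive cells in carriers for nearly every kind of substrate, in both directions. Of the 45 members, 39 passed the filter on low counts, and edgeR's quasi-likelihood test called 13 of them higher and 13 lower in Th17 cells (adjusted p under 0.05). That is 66.7% of the members tested, beside 65.1% of all 11989 genes tested, with 34.3% of all genes higher and 30.7% lower. The share of carriers called was thus close to that of the whole transcriptome. With either naive library left out both counts were smaller, and so were the counts over all genes, in fits that leave 1 naive library. Without Th17 library 2 fewer members were called higher, though not fewer of all genes. Scaled by library totals alone, 16 members were higher and 9 lower, beside 5186 and 2619 of all genes against 4116 and 3684. In log2 fold change, the median tested member was at -0.02, beside 0.06 over all tested genes. CPM did not overlap between the groups in 34 of the 39, or 87.2%, beside 85.0% of all tested genes. The changes ran from a log2 of -3.04 for Slc25a45 to 4.31 for Slc25a13.

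**Figure D1:**
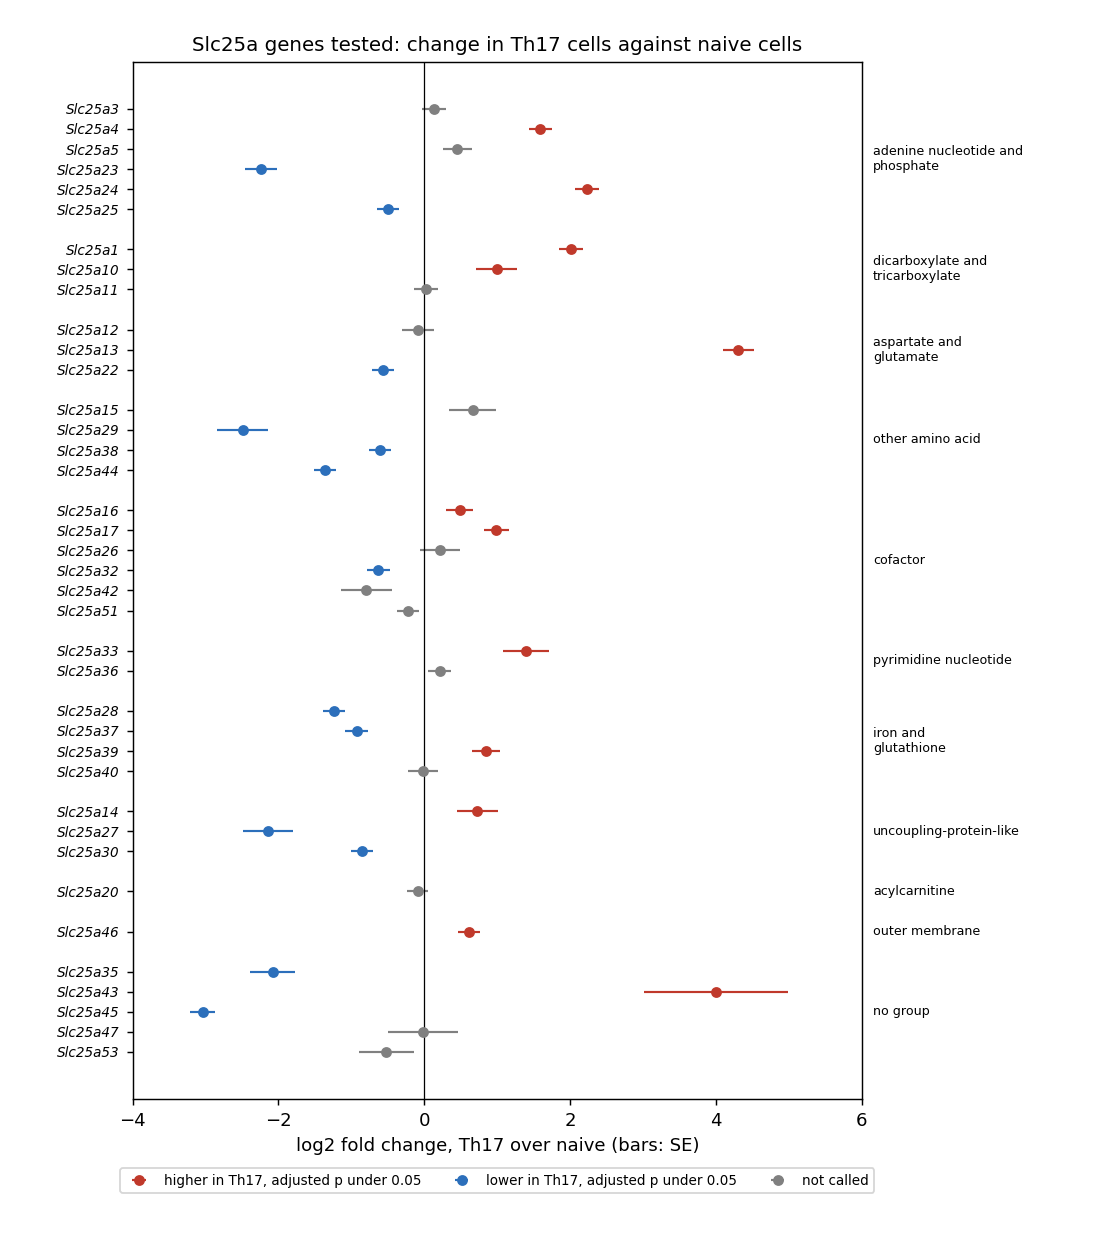
Change in Th17 against naive cells, as a log2 ratio, for 38 of the 39 Slc25a genes tested, arranged by substrate, with bars for the standard error of the edgeR fit. Red points are 12 genes higher in Th17, blue points the 13 lower and grey points the 13 not called, and most substrate groups hold more than 1 colour.

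Promoters of 5 members are shown because they set the sharpest rise in the family beside a paralog that was not called (Slc25a13 and Slc25a12), a second pair of paralogs for the same substrates (Slc25a33 and Slc25a36), and the citrate carrier gene Slc25a1. They are RefSeq sequences of build GRCm38.p6, all on the minus strand, from 250 bases before to 50 after the annotated start. Capitals mark 4 short motifs searched on both strands: the E-box CACGTG, which MYC and related factors bind, the ETS core CGGAAG, the NRF1 core TGCGCA and the CCAAT box CCAAT. None of these overlapped another in the sequences below.
Slc25a13, chr6:6217124-6217423: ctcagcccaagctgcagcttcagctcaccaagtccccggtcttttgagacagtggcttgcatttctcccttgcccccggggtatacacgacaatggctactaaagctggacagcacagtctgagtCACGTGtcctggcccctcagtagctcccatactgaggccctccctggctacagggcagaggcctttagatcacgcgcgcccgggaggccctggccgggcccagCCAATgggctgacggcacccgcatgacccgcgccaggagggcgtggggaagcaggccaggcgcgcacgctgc
Slc25a12, chr2:71367706-71368005: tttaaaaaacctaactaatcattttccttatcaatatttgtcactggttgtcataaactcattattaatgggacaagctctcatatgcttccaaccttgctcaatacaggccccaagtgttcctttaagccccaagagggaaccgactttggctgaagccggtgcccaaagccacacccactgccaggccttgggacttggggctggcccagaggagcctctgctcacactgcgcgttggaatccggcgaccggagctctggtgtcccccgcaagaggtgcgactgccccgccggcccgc
Slc25a33, chr4:149774218-149774517: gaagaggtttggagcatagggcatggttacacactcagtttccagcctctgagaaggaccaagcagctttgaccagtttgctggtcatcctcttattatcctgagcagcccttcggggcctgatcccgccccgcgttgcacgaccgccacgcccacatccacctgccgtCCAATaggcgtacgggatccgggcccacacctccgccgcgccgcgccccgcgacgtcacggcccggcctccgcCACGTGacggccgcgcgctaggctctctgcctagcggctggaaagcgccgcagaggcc
Slc25a36, chr9:97110992-97111291: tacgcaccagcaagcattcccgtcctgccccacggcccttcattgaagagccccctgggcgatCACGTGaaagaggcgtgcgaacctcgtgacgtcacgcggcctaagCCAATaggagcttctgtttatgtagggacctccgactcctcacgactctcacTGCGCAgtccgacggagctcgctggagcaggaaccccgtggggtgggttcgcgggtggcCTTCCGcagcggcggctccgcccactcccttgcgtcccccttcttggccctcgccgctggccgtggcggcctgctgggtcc
Slc25a1, chr16:17928170-17928469: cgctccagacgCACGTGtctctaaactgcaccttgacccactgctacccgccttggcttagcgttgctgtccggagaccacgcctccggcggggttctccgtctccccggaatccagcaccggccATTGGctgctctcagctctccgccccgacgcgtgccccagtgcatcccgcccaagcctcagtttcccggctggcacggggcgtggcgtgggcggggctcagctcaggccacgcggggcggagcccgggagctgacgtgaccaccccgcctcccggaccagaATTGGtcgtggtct

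The E-box lay at -125 relative to the start in Slc25a13, at -8 in Slc25a33, at -187 in Slc25a36 and at -239 in Slc25a1, and the Slc25a12 window held none of the 4 motifs. The promoters shown do not stand for the family. No member called lower is among them, nor are Slc25a24, Slc25a4 and Slc25a43, which rose and had no E-box. The promoter table held 44 promoters of 34 members, and 18.2% of them carried the E-box, beside 7.15% of all 32851 promoters of the same length. Those 32851 include promoters of genes that were not tested for expression, whereas most members were tested, so the backgrounds are not alike. The other motifs were found in 22.7% of member promoters against 16.9% of all for the ETS core, 9.09% against 7.76% for the NRF1 core and 22 of 44 against 37.4% for the CCAAT box. Set by call, the E-box was in 4 of 11 members that rose (Slc25a1, Slc25a13, Slc25a14 and Slc25a33), in 0 of 8 that fell and in 2 of 11 not called (Slc25a15 and Slc25a36). Among all tested genes with a promoter in the table it was in 358 of 3264 that rose, 375 of 2969 that fell and 412 of 3364 not called. Each of these shares was above 7.15% and at most 12.6%, and whether the members differ from them was not tested. A match is a run of letters and not a measured binding site.

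The carriers of ADP, ATP and phosphate held most of the family's transcript in both groups. The adenine nucleotide translocase genes Slc25a5 and Slc25a4 exchange matrix ATP for cytosolic ADP, and Slc25a3 brings in the phosphate that ATP synthase needs. Per exon length (RPKM, or CPM over the length of the exons in kb), Slc25a5 (chromosome X, 36795651 to 36798807) was the highest member, at 384 and 356 RPKM in Th17 cells, against 229 and 313 in naive cells. These 4 values did not overlap between the groups, yet the log2 fold change of 0.45 (SE 0.20) was not called, with an adjusted p of 0.073 by edgeR. Of 11 alternatives 7 also gave no call, among them edgeR with no filter on low counts at an adjusted p of 0.15. The gene was called higher by DESeq2 at 0.48 (adjusted p 0.027) and in the authors' deposited table at 0.49 (DESeq2 adjusted p 0.030). It was also called on library totals alone at 0.76 (edgeR adjusted p 0.011) and without naive library 2 at 0.62. Slc25a5 has processed copies in the mouse genome, and how reads that match several places were counted is not given in the sources used here.

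Slc25a4 (chromosome 8, 46206797 to 46211284) had 331 and 304 CPM in Th17 cells, against 100.3 and 110.4 in naive cells. Both Th17 libraries lay far above both naive ones, a log2 fold change of 1.59 (SE 0.16, edgeR adjusted p 3.6e-05). Slc25a3 was measured at 445 and 490 CPM in Th17 and 403 and 451 CPM in naive cells, values that overlapped, and its log2 fold change was 0.13 (SE 0.17). Slc25a4 therefore made up 26.8% and 26.6% of the RPKM of the Slc25a4 and Slc25a5 pair in Th17 libraries and 15.7% and 13.1% in naive libraries.

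**Figure D2:**
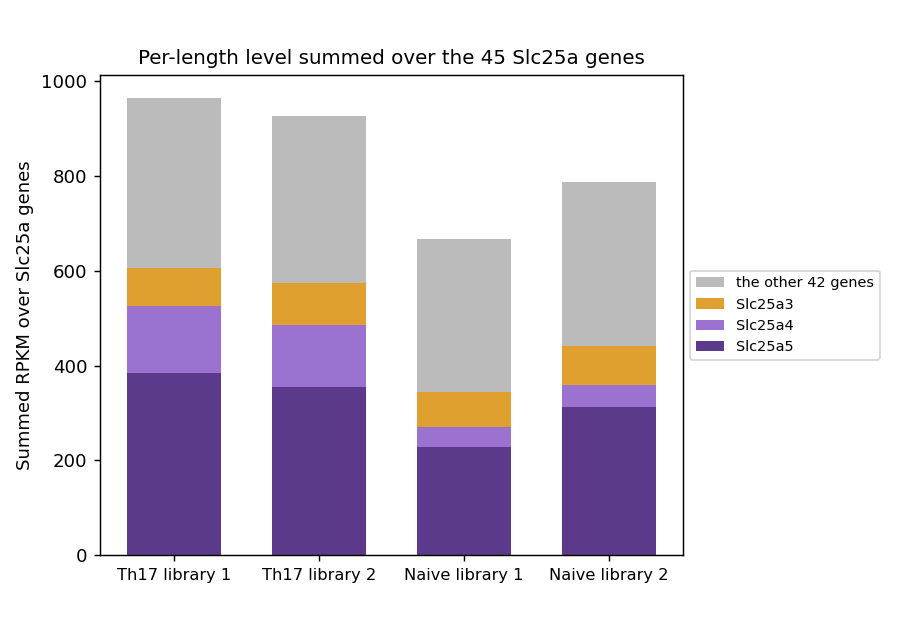
RPKM summed over the 45 Slc25a genes in each library, with Slc25a5, Slc25a4, Slc25a3 and the other 42 genes stacked. The total is 964 and 926 RPKM in the Th17 libraries and 667 and 786 RPKM in the naive libraries, and Slc25a4 is the band whose height differs most in proportion.

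Summed over all 45 members the level was 2779 and 2698 CPM in Th17 and 2237 and 2473 CPM in naive libraries. Per length the sums were 964 and 926 RPKM in Th17 and 667 and 786 in naive libraries. Slc25a3, Slc25a4 and Slc25a5 held 62.7% and 61.9% of that RPKM in Th17 and 51.6% and 56.1% in naive libraries. The Th17 values lay above the naive ones in each of these sums, and with 2 libraries against 2 an exact two-sided permutation test cannot give less than 0.333.

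Beside the translocases, the calcium-gated carriers that exchange ATP-Mg for phosphate, and so set the size of the matrix adenine nucleotide pool, moved against each other. Slc25a24 (chromosome 3, 109123149 to 109168457) rose to 57.9 and 50.5 CPM in Th17 cells, against 11.5 and 11.5 in naive cells, a log2 fold change of 2.23 (SE 0.16). Slc25a23 (chromosome 17, 57043711 to 57059863) fell to 14.0 and 21.4 CPM in Th17 cells, against 84.1 and 81.5 in naive cells, a log2 fold change of -2.24 (SE 0.21). The 2 genes thus changed by nearly equal amounts in opposite directions, with adjusted p of 5.5e-06 and 4.4e-05 by edgeR. Slc25a24 was 86.5% and 78.5% of the RPKM of the pair in Th17 libraries and 17.4% and 17.95% in naive libraries.

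The third gene of this kind, Slc25a25, changed less, with 27.3 and 28.4 CPM in Th17 and 37.6 and 41.1 CPM in naive cells. Its log2 fold change was -0.50 (SE 0.15, edgeR adjusted p 0.017), and the adjusted p ran from 0.0019 to 0.22 over 11 alternatives. The call was lost without naive library 1 at -0.60, with an adjusted p of 0.060, and without naive library 2 at -0.51, with an adjusted p of 0.082. It was also lost on library totals alone, at -0.20 with an adjusted p of 0.22. Slc25a41, a related gene without the calcium-binding domain, had 4 and 1 reads in Th17 and 0 in both naive libraries. Slc25a31, the translocase of germ cells, had 0 reads in both Th17 and 2 and 0 reads in the naive libraries. Neither was tested.

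**Figure D3:**
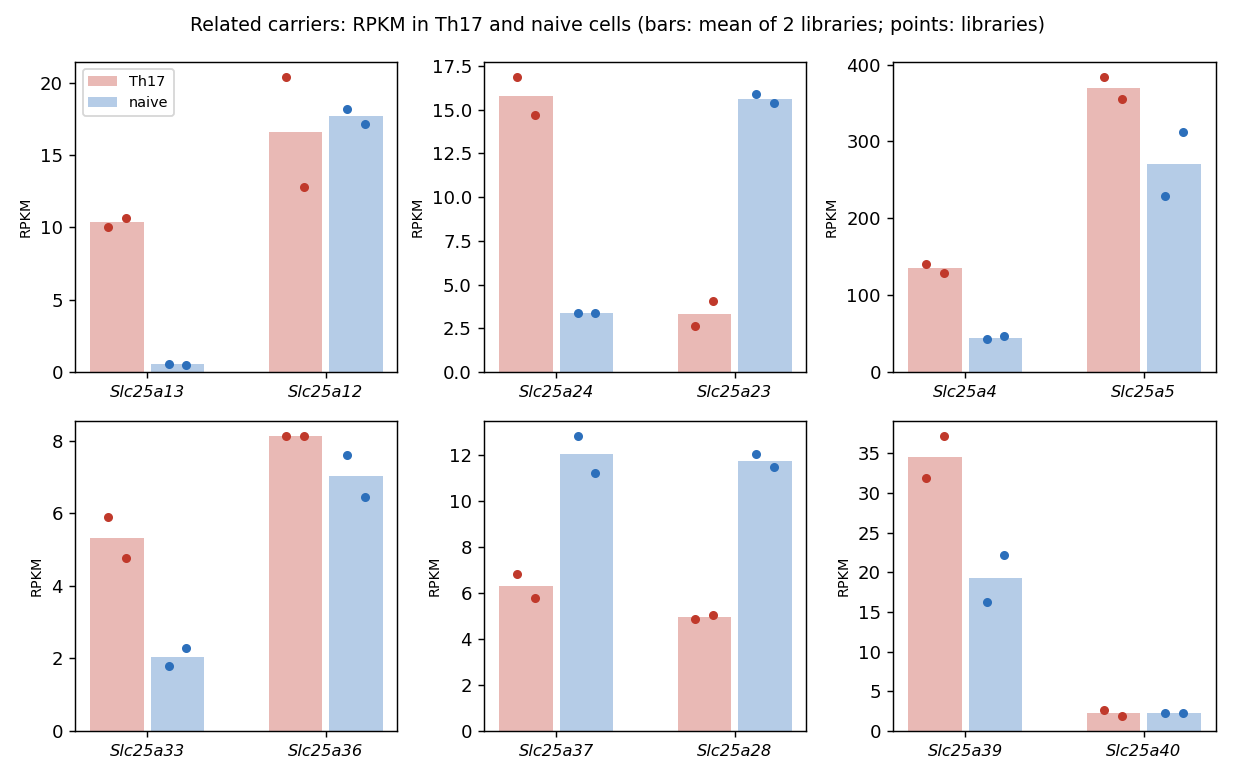
RPKM of 6 pairs of related carriers, with points for libraries and bars for the mean of 2 libraries, Th17 in red and naive in blue. Slc25a24 is the higher of its pair in Th17 and Slc25a23 in naive cells, and Slc25a13 stands at 10.35 RPKM in Th17 against 0.518 RPKM in naive cells.

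The carriers that pass carboxylates between matrix and cytosol rose or were not called. Slc25a1 (chromosome 16, 17925223 to 17928219) exports citrate, the source of cytosolic acetyl-CoA for lipid synthesis. It had 106.9 and 101.7 CPM in Th17 cells, against 23.8 and 28.1 in naive cells, a log2 fold change of 2.01 (SE 0.16, edgeR adjusted p 1.0e-05). Slc25a11, which exchanges 2-oxoglutarate for malate in the malate-aspartate shuttle, was the highest of this group per length at 47.5 ± 1.43 RPKM in Th17 and 46.8 ± 6.21 RPKM in naive cells (SD, n = 2 each). Its log2 fold change was 0.02 (SE 0.16), with libraries that overlapped. Exons of Rnf167 on the opposite strand cover 8.92% of its exons, and Rnf167 had 25.1 and 28.0 CPM in Th17 against 380 and 430 CPM in naive cells. Whether counting was strand-specific is not given in the sources used here. Antisense or other transcripts of the opposite strand also cover 14.9% of the exons of Slc25a33, 7.06% of Slc25a46, 6.60% of Slc25a10, 6.33% of Slc25a37, 4.82% of Slc25a25 and 3.17% of Slc25a23.

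Slc25a10, which exchanges malate or succinate for phosphate, had 17.3 and 29.9 CPM in Th17 and 12.7 and 10.9 CPM in naive cells. The Th17 libraries differed from each other by more than 1.5 times, and the log2 fold change was 0.99 (SE 0.28, edgeR adjusted p 0.015). It ran from 8.9e-07 to 0.27 over 11 alternatives. Without Th17 library 2 the value was 0.55 with an adjusted p of 0.059, and the call was also lost without naive library 1 at 1.08, adjusted p 0.20, and without naive library 2 at 0.83, adjusted p 0.27. Slc25a21, the carrier of 2-oxoadipate, had 0 and 11 reads in Th17 and 3 and 0 in naive libraries and was not tested.

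The aspartate and glutamate carriers contained the largest rise of the family. Slc25a13 and Slc25a12 encode citrin and aralar, calcium-regulated exchangers that send aspartate to the cytosol in return for glutamate. Slc25a13 (chromosome 6, 6041218 to 6217173) had 38.2 and 40.5 CPM in Th17 cells, against 2.18 and 1.76 in naive cells, with 41 and 25 reads in the naive libraries. The Th17 values were 19.8-fold the naive ones, a log2 fold change of 4.31 (SE 0.21, edgeR adjusted p 5.9e-07).

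Slc25a12 (chromosome 2, 71271063 to 71367749) had 149.8 and 94.0 CPM in Th17 cells, against 133.6 and 125.7 in naive cells. Its Th17 libraries lay on either side of the naive ones, and the log2 fold change of -0.09 (SE 0.23) was not called. Per length, Slc25a13 supplied 33.0% and 45.4% of the RPKM of the pair in Th17 libraries and 3.05% and 2.64% in naive libraries. Slc25a22, which imports glutamate with a proton, fell to 58.7 and 53.2 CPM in Th17, against 87.1 and 78.8 in naive cells, by 0.57 on the log2 scale (SE 0.15). Its adjusted p of 0.010 by edgeR ran from 6.7e-05 to 0.13 over 11 alternatives, and without Th17 library 2 the value was -0.50 with an adjusted p of 0.057. The highest was on library totals alone, where Slc25a22 was at -0.27 and not called. Slc25a18 was not analysed here.

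Carriers of other amino acids fell in 3 of the 4 members tested, and by edgeR none rose. At an unadjusted p under 0.05 and by DESeq2 the counts higher in Th17 were also 0 and 0. Over all tested genes 30.7% fell and 34.3% rose, and whether these 4 members differ from those shares was not tested. Slc25a29, a carrier of basic amino acids, had 2.05 and 1.59 CPM in Th17 and 9.98 and 10.7 CPM in naive cells, a log2 fold change of -2.49 (SE 0.34). Slc25a44, which imports branched-chain amino acids, had 20.6 and 22.1 CPM in Th17 and 53.3 and 56.5 CPM in naive cells, at -1.36 (SE 0.15). Slc25a38, which brings in glycine for haem synthesis and was the highest of this group per length, had 26.6 and 25.0 CPM in Th17 and 37.9 and 40.4 CPM in naive cells, at -0.60 (SE 0.15). In all 3 genes every Th17 library lay below every naive one, with adjusted p of 2.6e-04, 6.3e-05 and 0.0070 by edgeR. The groups did not overlap, in either direction, in 85.0% of all tested genes. On library totals alone Slc25a38 was not called, at -0.30 with an adjusted p of 0.075, its highest over 11 alternatives that reached down to 1.2e-04.

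Slc25a15, the ornithine and citrulline exchanger of the urea cycle, had 16.5 and 31.7 CPM in Th17 and 15.0 and 15.3 CPM in naive cells. Th17 library 2 lay far above the other 3 libraries, and the gene was not called, with a log2 fold change of 0.66 (SE 0.32). Without Th17 library 1 it was 1.04 with an adjusted p of 6.7e-05, and without Th17 library 2 it was 0.13 with an adjusted p of 0.69, the ends of its range over 11 alternatives. The related Slc25a2 had 4 and 1 reads in Th17 and 5 and 3 in naive libraries and was not tested.

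The cofactor carriers split, with 3 higher and 1 lower of 7 tested, beside 34.3% higher and 30.7% lower of all tested genes. The highest per length was Slc25a17, the carrier of peroxisomes, which takes coenzyme A and related nucleotides. It had 91.8 and 84.6 CPM in Th17, against 39.4 and 49.6 in naive cells, a log2 fold change of 0.99 (SE 0.17, edgeR adjusted p 9.1e-04).

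Slc25a32, which moves folate into the matrix, went the other way. It had 28.9 and 24.4 CPM in Th17 and 42.5 and 40.2 CPM in naive cells, a log2 fold change of -0.63 (SE 0.16, edgeR adjusted p 0.0070) that ran from 3.0e-04 to 0.078 over 11 alternatives. Without naive library 1 it was -0.64, adjusted p 0.070, and without naive library 2 it was -0.75, adjusted p 0.052. On library totals alone it was -0.34, adjusted p 0.078, and again not called. Slc25a16 had 23.1 and 25.9 CPM in Th17 and 18.9 and 16.1 CPM in naive cells. Its log2 fold change of 0.48 (SE 0.18) was called at an adjusted p of 0.042 by edgeR, and at 0.012 on library totals alone. The call was lost when any library was left out. The value was 0.57 without naive library 1 and 0.30 without naive library 2. Without Th17 library 1 it was 0.53, and without Th17 library 2 it was 0.40. The call was also lost with no filter on low counts and with a mean normalized count of at least 10 (edgeR adjusted p 0.099 and 0.064). In the authors' deposited table Slc25a16 was not called either (DESeq2 adjusted p 0.065).

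The cofactor carriers Slc25a51, Slc25a26 and Slc25a42 were not called. Slc25a51, which imports NAD, had 63.3 and 66.5 CPM in Th17 and 76.0 and 76.0 CPM in naive cells, a log2 fold change of -0.23 (SE 0.15). Slc25a26, which imports the methyl donor S-adenosylmethionine, was at 0.22 (SE 0.27) in log2. Lrig1, whose exons on the opposite strand cover 3.00% of those of Slc25a26, had 240 and 237 CPM in Th17 and 75.9 and 94.2 in naive cells. Slc25a42, a coenzyme A carrier, had 6.11 and 12.5 CPM in Th17 and 14.8 and 17.3 CPM in naive cells, so that Th17 library 1 lay well below library 2, and its log2 fold change was -0.80 (SE 0.35, edgeR adjusted p 0.082). Over 11 alternatives that ran from 1.4e-05 to 0.37. Without Th17 library 2 Slc25a42 was at -1.39 and called, and without Th17 library 1 it was at -0.39 and not called. It was also called lower with the replicate block and in the authors' deposited table, there at -0.85 (DESeq2 adjusted p 0.044).

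Of the pyrimidine nucleotide carriers, which supply the matrix with precursors for mitochondrial DNA and RNA, the scarcer gene rose. Slc25a33 had 11.1 and 9.02 CPM in Th17 and 3.40 and 4.30 CPM in naive cells, a log2 fold change of 1.39 (SE 0.31, edgeR adjusted p 0.0041) that ran from 2.2e-05 to 0.082 over 11 alternatives. Without naive library 1 it was 1.184, adjusted p 0.082, and without naive library 2 it was 1.49, adjusted p 0.061. Slc25a36, the highest of the group per length, had 78.1 and 77.97 CPM in Th17 and 73.0 and 61.9 CPM in naive cells, and its log2 fold change of 0.21 (SE 0.16) was not called. Slc25a33 was 41.97% and 37.0% of the RPKM of the pair in Th17 and 19.1% and 26.1% in naive libraries.

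Both mitoferrins, the iron importers of the inner membrane, fell. Slc25a28, mitoferrin 2, had 18.4 and 18.9 CPM in Th17 and 45.2 and 43.1 CPM in naive cells, a log2 fold change of -1.24 (SE 0.15). Slc25a37, mitoferrin 1, best known from red cell precursors, had 41.2 and 34.9 CPM in Th17 and 77.4 and 67.7 CPM in naive cells, at -0.93 (SE 0.16). Adjusted p was 1.2e-04 and 0.0010 by edgeR, and no Th17 library reached a naive one. Of the 7 erythroid markers 4 were tested, and the erythropoietin receptor gene Epor alone was called, with 127 and 64 reads in Th17 and 3 and 0 in naive libraries (edgeR adjusted p 3.9e-04). The 3 tested globin genes were not called, and Hbb-bs, the most abundant of them, had 0 and 70 reads in Th17 and 127 and 60 in naive libraries.

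Slc25a39, which imports glutathione and was the highest of the iron and glutathione group per length, rose. It had 88.0 and 102.5 CPM in Th17 and 44.9 and 61.1 CPM in naive cells, a log2 fold change of 0.85 (SE 0.19, edgeR adjusted p 0.0039). The adjusted p ran from 2.2e-08 to 0.092 over 11 alternatives, the highest without naive library 1, where the value was 0.60. Its relative Slc25a40 had 22.4 and 15.8 CPM in Th17 and 19.4 and 19.4 CPM in naive cells, a log2 fold change of -0.02 (SE 0.21) that was not called.

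The relatives of the uncoupling proteins were called in all 3 members tested, beside 65.1% of all tested genes. Slc25a30, the highest of them per length, had 33.4 and 35.8 CPM in Th17 and 58.4 and 66.4 CPM in naive cells, a log2 fold change of -0.85 (SE 0.15). Slc25a27 had 2.01 and 2.42 CPM in Th17 and 10.7 and 8.80 CPM in naive cells, at -2.14 (SE 0.34). Adjusted p was 0.0012 for Slc25a30 and 6.2e-04 for Slc25a27 by edgeR, the second with a range from 3.4e-08 to 0.062 over 11 alternatives and lost without naive library 1 at -2.02.

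Slc25a14 had 11.3 and 8.94 CPM in Th17 and 5.73 and 6.55 CPM in naive cells, at 0.72 (SE 0.28) in log2. Its adjusted p of 0.048 by edgeR ran from 0.011 to 0.23 over 11 alternatives. The call was lost without naive library 1 at 0.58, without naive library 2 at 0.74 and without Th17 library 1 at 0.51. It was also lost with the replicate block, with the other filters on low counts and in the authors' deposited table.

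The acylcarnitine carrier gene Slc25a20, which admits fatty acids for oxidation, had 35.7 and 34.9 CPM in Th17 and 37.8 and 37.5 CPM in naive cells. The groups did not overlap, but the log2 fold change of -0.09 (SE 0.14) was not called. Slc25a46, a member of the outer membrane that takes part in mitochondrial fusion and fission, had 73.5 and 65.6 CPM in Th17 and 43.7 and 47.2 CPM in naive cells, at 0.62 (SE 0.15, edgeR adjusted p 0.0065). It ran from 5.0e-06 to 0.057 over 11 alternatives, the highest without naive library 1, where the value was 0.52.

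**Figure D4:**
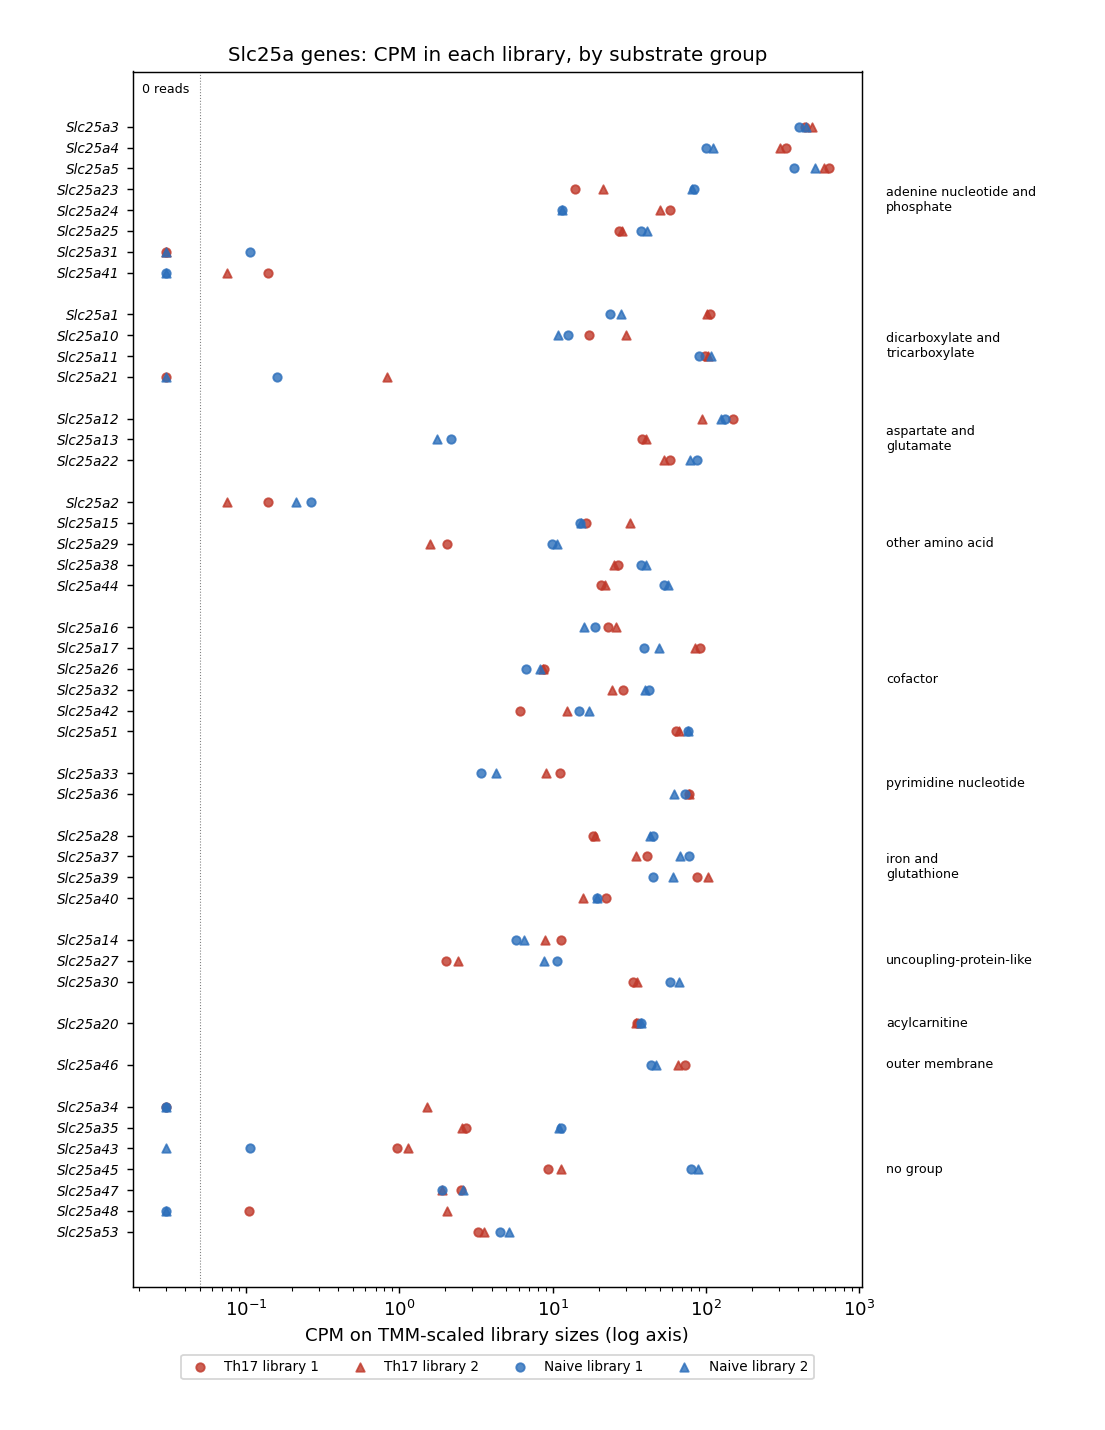
CPM of 44 of the 45 Slc25a genes in each library on a log axis, with circles for library 1 and triangles for library 2, and genes without a read at the left of the dotted line. Levels run from 0 reads to 632.6 CPM for Slc25a5, and Slc25a45 has the widest gap among genes lower in Th17, with 9.40 and 11.3 CPM against 80.1 and 88.9 CPM in naive cells.

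Of the 7 members left without a substrate group, the deepest fall of the family was in Slc25a45. It lies on chromosome 19, from 5877808 to 5885878, and had 9.40 and 11.3 CPM in Th17 cells, against 80.1 and 88.9 in naive cells. No Th17 value came near a naive one, at a log2 fold change of -3.04 (SE 0.17, edgeR adjusted p 1.3e-06). Per length it stood at 3.75 ± 0.484 RPKM in Th17 and 30.6 ± 2.25 RPKM in naive cells (SD, n = 2 each), so that in naive cells its mean was below those of Slc25a5, Slc25a3, Slc25a11 and Slc25a4 alone.

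Slc25a35 had 2.71 and 2.58 CPM in Th17 and 11.4 and 11.1 CPM in naive cells, a log2 fold change of -2.08 (SE 0.30, edgeR adjusted p 3.6e-04). Exons of Rangrf on the opposite strand cover 31.3% of its exons, and Rangrf had 9.78 and 6.90 CPM in Th17 and 5.15 and 6.90 in naive cells, which did not pass the test. Slc25a43 had 28 and 15 reads in Th17 and 2 and 0 in naive libraries. In Th17 its summed reads over TMM-scaled library sizes were 16.9-fold those in naive cells, with exact 95% counting bounds of 4.40 and 144. Its adjusted p of 0.0064 by edgeR ran from 0.0022 to 0.16 over the 10 alternatives that gave a value, and the call was lost without naive library 1 at an adjusted p of 0.086 and without naive library 2 at 0.16. Its fitted log2 fold change of 4.002 was then 7.31 and 3.17. The call was also lost with no filter on low counts, at 4.03 (edgeR adjusted p 0.073). In the authors' deposited table Slc25a43 was at 4.73 and again not called (DESeq2 adjusted p 0.084).

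Slc25a47 and Slc25a53 were not called, at -0.02 (SE 0.49) and -0.52 (SE 0.38) in log2. Slc25a48 had 3 and 27 reads in Th17 and 0 in both naive libraries, and Slc25a34 had 0 and 20 in Th17 and 0 in both naive libraries. Neither was tested. Most of their reads came from Th17 library 2, as did the Slc25a21 reads. That library also had 284 reads on Gpd1, a glycerol phosphate dehydrogenase gene, beside 6 in Th17 library 1 and 7 in each naive library. Its part in these members was not tested. A count of 0 in a library allows up to 3 reads, from 0.104 to 0.227 CPM.

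Genes that work with the carriers were read alongside. Of the carriers of the same family with other names, Ucp2 fell to 495 ± 59.5 CPM in Th17, against 1014 ± 144.5 in naive cells (SD, n = 2 each), by 1.03 on the log2 scale (SE 0.20), whereas Mtch1 and Mtch2, which act at the outer membrane, rose by 0.92 (SE 0.20) and 0.79 (SE 0.15). Among 13 genes for the import of carriers through the outer membrane pore and the TIM22 complex, 5 rose and 3 fell, near the shares of 34.3% and 30.7% over all tested genes. The TIM chaperone gene Timm8b rose by 1.40 (SE 0.17) and the pore gene Tomm40 by 1.02 (SE 0.15), and the chaperone gene Timm10b and the TIM22 subunit gene Agk changed by -1.02 (SE 0.29) and -0.49 (SE 0.15). Timm22 itself, at 0.23, was not called.

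Other transporters of the mitochondrial membranes rose in 9 and fell in 3 of 21 tested genes, beside 34.3% and 30.7% of all tested genes. The calcium uniporter inhibitor gene Mcub rose by a log2 of 2.88 (SE 0.29) and the ABC transporter gene Abcb10 by 2.49 (SE 0.25). The sideroflexin genes Sfxn3 and Sfxn2 changed by -1.68 (SE 0.15) and -0.51 (SE 0.17). Sfxn1, added after its values were seen, rose by 1.07 (SE 0.16) and enters the counts and the median of this list. Enzymes of the malate-aspartate and glycerol phosphate shuttles carry cytosolic electrons to the mitochondria. Their genes rose in 5 and fell in 1 of 6 tested, beside the same shares of all tested genes. Got1 rose by 2.76 (SE 0.17) and Gpd2 by 1.97 (SE 0.24), and Gpd1l changed by -2.15 (SE 0.17). The median log2 fold change was 0.18 for the import genes, 0.28 for the other transporters and 1.02 for the shuttle enzymes, beside 0.06 over all tested genes.

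The editing tables gave a second readout, of the same naive and Th17 libraries in one table and of the separate DDX5-deficient and wild-type Th17 libraries in the other. Of 869 A-to-I sites listed for Th17 and naive cells, 0 were named for an Slc25a gene or lay within the bounds of the gene, and of 355 listed for DDX5-deficient and wild-type Th17 cells likewise 0. The tables list only sites that passed the authors' confidence limit, so editing below it was not measured.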

How the data were processed

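Ribosome-depleted RNA was sequenced in 8 libraries, and the 4 of Th17 and naive cells had a table of gene expression. The deposited counts per gene and library were made with STAR 2.6.1a, featureCounts and the mm10 build, per the submitters' processing notes. The log2 fold change and adjusted p-value in that table came from the authors' DESeq2 1.18.1, per the file headers and those notes. The deposited editing levels, each a fraction of reads at a site, are from SAILOR per the labels, and only site positions were used.

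Counts were tested with edgeR 4.0.16 in R 4.3.3: filterByExpr, TMM, a robust quasi-likelihood fit on group alone and Benjamini-Hochberg adjustment over all 11989 genes tested, called under 0.05. The fit was tested on simulated counts. CPM uses TMM-scaled library sizes, and RPKM divides it by the exon union in GENCODE M21 of the same build, which held all 45 members by identifier. Intervals are exact conditional binomial intervals at 95%, and they and floors cover counting error only, since PCR copies could not be told from separate molecules. The libraries are independent biological replicates per the submitters' design text.

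The members, gene lists, substrate groups and motifs were chosen with earlier results of these data known. Named in full were called members with the 10 largest changes in each direction and the highest member per length of each group. Proteins were not used here, and 1 member and some markers, which enter the counts and sums, are not reported here. Alternatives were DESeq2 1.42.0, other scalings and filters, a replicate block, each library left out and the authors' deposited table.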

Additional observations from a re-analysis of the deposited data

How the results depend on the processing

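Of the 26 members called, 13 kept their call and direction in all 11 alternatives, 5 of them higher and 8 lower in Th17, and 13 lost the call in at least 1. No called member changed sign. With each library left out in turn, members called higher ran from 5 to 13 and lower from 10 to 13, beside 2380 to 4847 and 2567 to 3672 of all genes. The lowest count of members higher was 5 without naive library 1, and it was 8 without naive library 2. The single library left in a group is taken to vary as the other group does. On library totals alone the median of all genes moved to 0.36, a shift shared by the members, and 16 members were higher and 9 lower, against 13 and 13. DESeq2 called 15 higher and 13 lower of 43, beside 4759 and 3852 of 14094 genes. In the authors' deposited table they were 11 and 14 of 42, beside 4173 and 3601 of 13462 genes. The replicate block was run because both groups number their libraries 1 and 2. It gave 12 higher and 14 lower of 39, beside 4094 and 3644 of 11989 genes. The deviations of same-numbered libraries correlated at -0.081 across 11989 genes, and no label states a pairing, though the second library of each group carries the same identifier in its description and the first does not.

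Sign changes were met in 6 members that were not called. On library totals alone the values were 0.21 for Slc25a12, 0.21 for Slc25a20, 0.28 for Slc25a40, 0.28 for Slc25a47 and 0.074 for Slc25a51. With RLE factors Slc25a40 and Slc25a47 lay at 0.0111 and 0.0107, with DESeq2 at 0.0119 and 0.0074, and Slc25a47 at 0.0054 in the authors' deposited table. Slc25a11 was at -0.0091 with no filter and ran from -0.15 to 0.091 with a library left out. In such fits Slc25a12 ran from -0.50 to 0.21, Slc25a40 from -0.33 to 0.21 and Slc25a47 from -0.28 to 0.18. The causes were not tested. Depth limits members with few reads: 6 of 45 were not tested.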
